A study of Mus musculus with 6 samples.

Results

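Osteoclasts, the bone-resorbing cells of the myeloid lineage, form when the cytokine RANKL binds its receptor RANK on precursors that also depend on CSF1. Costimulatory receptors that signal through ITAM adaptors raise calcium, calcineurin activates NFATc1, and NFATc1 turns on the genes for cell fusion, acid secretion and matrix digestion. The genes described here are 10 members of that final programme, chosen by symbol: Nfatc1, the receptors Trem2, Oscar and Itgb3, the fusion genes Dcstamp, Ocstamp and Atp6v0d2, and the secreted effectors Acp5, Ctsk and Mmp9. All 10 were found among 24054 gene rows, and all 10 passed the low-count filter that left 14044 genes. Salivary gland has no bone surface, and several members are also made by macrophages, fibroblasts or epithelium.

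Polyadenylated RNA of mouse salivary gland was sequenced in 3 control and 3 K5-RANKL libraries. K5-RANKL mice carried K5-rtTA, a doxycycline-dependent activator under the keratin 5 promoter of basal epithelial cells, and TetO-RANKL, which that activator switches on. Controls were monogenic, and which transgene they carried is not given in the sources used here. Mice of both genotypes were given doxycycline for 2 weeks starting when they were 9 weeks old, and each library pooled the glands of 5 mice. The p-values therefore measure variation among pools, which the labels do not call separate experiments. Library totals ran from 13875951 to 17921815 counts. Tnfsf11, which encodes RANKL, stood at 3.78, 1.86 and 0.939 CPM (counts scaled to a common library size, which is adjusted for composition by the trimmed mean of M values, TMM) in controls and at 702, 405 and 723 CPM in K5-RANKL libraries. The salivary markers were present in every library. The 8 acinar genes summed to 47090 to 53108 CPM in controls and 4905 to 6950 CPM in K5-RANKL libraries, and all 8 fell. Amy1, the salivary amylase gene and the most abundant of them, fell by 5.04 (SE 0.96). Scaled by library totals only, the groups of Smgc overlapped, while those of the other acinar genes stayed apart. The median log2 fold change over all genes tested was 0.01 with TMM scaling and 1.01 when only library totals were used for scaling. In bulk RNA, fewer cells of a type and less RNA per cell cannot be told apart.

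Promoter sequences from RefSeq (GRCm38.p6) were used for 4 of the 10 members: Acp5, Ctsk, Oscar and Trem2. They are shown as the members for which a window was given, with Nfatc1 left out of the search. Each run is the 250 bases before an annotated transcript start, 5′ to 3′ on the gene's strand, and capitals mark every match, on either strand, to TGGAAA (NFAT core), TGANTCA (AP-1), GAGGAA (PU.1 core), TCANGTG (MITF) or the NF-kB site.

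Acp5, chr9:22130599-22130848, minus strand: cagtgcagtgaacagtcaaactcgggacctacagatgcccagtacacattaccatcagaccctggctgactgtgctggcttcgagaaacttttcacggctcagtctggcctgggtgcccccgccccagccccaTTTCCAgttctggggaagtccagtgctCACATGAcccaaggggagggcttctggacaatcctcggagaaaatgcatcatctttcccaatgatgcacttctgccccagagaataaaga

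Ctsk, chr3:95498960-95499209, plus strand: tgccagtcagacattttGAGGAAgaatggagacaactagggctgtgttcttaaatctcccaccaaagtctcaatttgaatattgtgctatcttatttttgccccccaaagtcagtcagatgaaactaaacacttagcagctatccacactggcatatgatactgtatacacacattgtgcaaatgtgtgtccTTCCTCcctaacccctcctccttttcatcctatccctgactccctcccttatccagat

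Oscar, chr7:3616158-3616407, minus strand: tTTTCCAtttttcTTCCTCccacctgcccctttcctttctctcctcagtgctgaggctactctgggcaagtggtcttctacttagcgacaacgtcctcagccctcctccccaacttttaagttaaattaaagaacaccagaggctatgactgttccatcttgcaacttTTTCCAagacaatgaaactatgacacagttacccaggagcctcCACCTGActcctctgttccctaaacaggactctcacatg

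Trem2, chr17:48346151-48346400, plus strand: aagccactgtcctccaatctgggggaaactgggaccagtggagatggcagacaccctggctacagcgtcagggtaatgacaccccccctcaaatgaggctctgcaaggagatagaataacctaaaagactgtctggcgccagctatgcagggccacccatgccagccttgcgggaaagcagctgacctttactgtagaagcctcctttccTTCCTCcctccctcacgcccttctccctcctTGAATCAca

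No capitals overlapped between motifs. The PU.1 core, the site of the myeloid factor encoded by Spi1, was in the Ctsk, Oscar and Trem2 windows, and 23.3% of all 32851 promoter windows of the same length held it. The NFAT core was in the Acp5 window shown and at 2 places in Oscar, against 18.6% of all windows. The MITF letters were in Acp5 and Oscar (12.2% of all windows), and the AP-1 letters in Trem2, 3 to 9 bases before the start (6.75% of all windows). The NF-kB site, present in 0.98% of all windows, had 0 matches here. Acp5 has 3 annotated starts, and the windows before its other starts held no match. A match is a description of letters, not of binding.

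Of the 10 members, 9 were higher in K5-RANKL glands and 0 were lower by edgeR's quasi-likelihood test at an adjusted p under 0.05, the threshold for every call below. The count of lower members was also 0 at an unadjusted p under 0.05, with DESeq2 and with limma voom. The same test called 34.2% of all genes tested higher and 32.1% lower. DESeq2 called 30.8% higher and 29.5% lower, and limma voom 33.9% and 31.9%. With other scalings in edgeR the shares called higher and lower were 33.8% and 32.4% (DESeq2's size factors), 33.5% and 32.9% (upper quartile), and 34.1% and 32.1% (TMM without the 20 most abundant genes), and 9 members were called higher in each. Without a low-count filter 27.7% of genes were called higher and 24.3% lower, again with 9 members higher. With at least 50 counts required in 3 libraries the shares were 35% and 33.3%, and 8 members were higher because Oscar was not tested. The members' median log2 fold change was 3.76, beside 0.01 for all genes tested. In the same 9 members every K5-RANKL library lay above every control, as it did for 36.3% of all genes tested. Fold changes ranged from 2.28-fold for Nfatc1 to 63.6-fold for Mmp9. The exception was Atp6v0d2, whose groups overlapped and which did not pass the test.

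**Figure D1:**
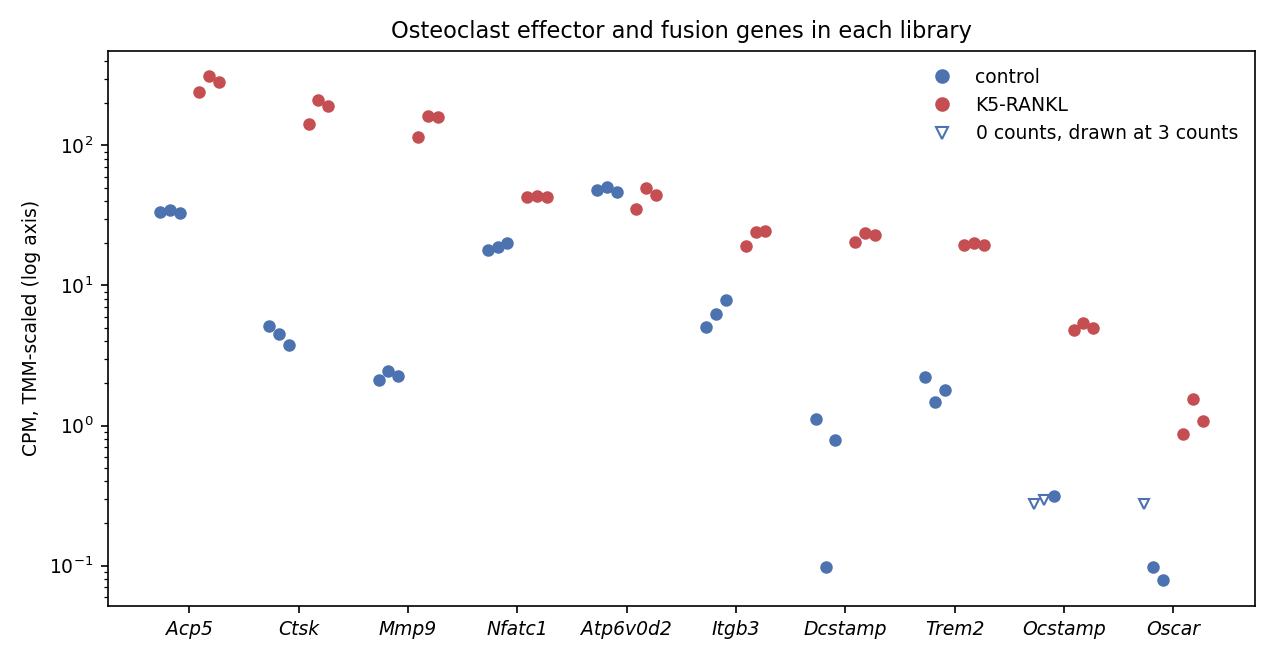
TMM-scaled CPM (log axis) of the 10 genes in 3 control and 3 K5-RANKL libraries, 1 point per library; open triangles are libraries with 0 counts, drawn at the level of 3 counts. The groups are apart for 9 genes, with Mmp9 at 2.12 to 2.45 CPM in controls and 115 to 162 CPM in K5-RANKL libraries, and overlap for Atp6v0d2.

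The secreted effectors were the most abundant members in K5-RANKL glands. Acp5 (Entrez 11433, chromosome 9 from 22126727 to 22135746, GRCm38) encodes tartrate-resistant acid phosphatase, the classical stain of osteoclasts, which alveolar and other tissue macrophages also make. It stood at 33.7, 34.5 and 32.8 CPM in controls and at 242, 314 and 282 CPM in K5-RANKL libraries. The controls lay within 2 CPM of each other, and the lowest K5-RANKL library was far above them. The fitted log2 rise of Acp5 was 3.05 (SE 0.10), or 8.30-fold, with an edgeR adjusted p of 7.73e-14. On the opposite strand 6530413G14Rik overlaps 137 bases of Acp5 exons, 8.01% of their length, and the strand setting of the counting is not given.

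Ctsk (Entrez 13038, chromosome 3 from 95499210 to 95509387) encodes cathepsin K, the collagen-cleaving protease of the resorption pit, which fibroblasts can also express. Its level was 5.16, 4.52 and 3.76 CPM in controls and 143, 211 and 190 CPM in K5-RANKL libraries. K5-RANKL 1 was the lowest of its group, and still far above all controls. Ctsk rose by 5.35 (SE 0.19, 40.7-fold, edgeR adjusted p = 3.67e-09).

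Mmp9 (Entrez 17395, chromosome 2 from 164940326 to 164955850) encodes gelatinase B, a matrix metalloproteinase of osteoclasts, neutrophils and activated epithelium. It was measured at 2.12, 2.45 and 2.27 CPM in controls and at 115, 162 and 160 CPM in K5-RANKL libraries. The change of 5.99 (SE 0.18, edgeR adjusted p = 6.53e-11) was exceeded by 0.669% of all genes tested. The listed neutrophil genes summed to 2.67 to 5.09 CPM in controls and 12.3 to 14.6 CPM in K5-RANKL libraries. All 4 that could be tested rose, led in abundance by the receptor gene Csf3r at 2.23 (SE 0.20), and the granule genes Mpo, Elane, Ngp and Camp were at or under 0.326 CPM in every library. Retnlg, also too low to test, had 0, 1 and 1 counts in controls and 5, 10 and 6 in K5-RANKL libraries, without overlap, a ratio of 5.53 with a 95% counting interval of 1.35 to 48.6. The part of the neutrophil genes in the rise of Mmp9 was not tested.

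The fusion genes gave divergent results. Dcstamp (Entrez 75766, chromosome 15 from 39745930 to 39760938) encodes the multipass membrane protein DC-STAMP, required for osteoclasts and macrophage giant cells to fuse. It had 12, 1 and 10 counts in controls and 491, 441 and 489 counts in K5-RANKL libraries, or 1.11, 0.0982 and 0.782 CPM against 20.4, 23.6 and 22.8 CPM. Control 2 was the lowest control by a wide margin, while the K5-RANKL libraries were close together. Dcstamp rose by 5.02 (SE 0.25, 32.4-fold, edgeR adjusted p = 2.96e-10).

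Ocstamp (Entrez 74614, chromosome 2 from 165395450 to 165400394) encodes OC-STAMP, a related membrane protein that is also required for fusion. It had 0, 0 and 4 counts in controls and 116, 101 and 106 counts in K5-RANKL libraries. All control counts came from control 3, and the K5-RANKL libraries stood at 4.82, 5.40 and 4.94 CPM. The fitted rise was 5.33 (SE 0.44, edgeR adjusted p = 1.20e-08), and the ratio of summed counts per scaled library was 42.5 with a 95% counting interval of 16.4 to 157. Without control 3 no control count was left, and the fitted 9.43 then shows only the direction.

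Atp6v0d2 (Entrez 242341, chromosome 4 from 19876838 to 19922566) encodes the d2 subunit of the proton pump's membrane sector, an isoform enriched in osteoclasts and some epithelia and implicated in fusion. It stood at 48.1, 50.4 and 46.5 CPM in controls and 35.2, 49.9 and 44.0 CPM in K5-RANKL libraries. The groups overlapped, with K5-RANKL 1 and K5-RANKL 3 below all controls and K5-RANKL 2 among them. The log2 difference was −0.17 (SE 0.11, edgeR adjusted p = 0.178), it was −0.29 with an adjusted p of 0.0146 in edgeR without K5-RANKL 2, and by library totals it turned to 0.82 (edgeR adjusted p = 1.22e-07). The log2 ratio of Atp6v0d2 to Atp6v0d1, the ubiquitous isoform, was −0.32, −0.09 and −0.21 in controls and −0.76, −0.26 and −0.32 in K5-RANKL libraries. These groups overlapped (difference −0.24, exact permutation test, two-sided p = 0.3, where 3 against 3 libraries cannot go below 0.1). Atp6v0d1 itself stood at 0.05 (SE 0.08) and was not called.

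The receptors rose by different amounts. Trem2 (Entrez 83433, chromosome 17 from 48346401 to 48352276) encodes a lipid-sensing receptor of macrophages, microglia and osteoclast precursors that signals through the adaptor encoded by Tyrobp. It was at 2.21, 1.47 and 1.80 CPM in controls and at 19.4, 20.01 and 19.5 CPM in K5-RANKL libraries. The 3 K5-RANKL values lay within 1 CPM of each other. Trem2 rose by 3.42 (SE 0.15, 10.7-fold, edgeR adjusted p = 2.56e-12), and Tyrobp rose by 2.44 (SE 0.08) from 16.4 ± 1.32 to 89.0 ± 2.30 CPM (SD, n = 3 each).

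Oscar (Entrez 232790, chromosome 7 from 3609813 to 3616157) encodes a collagen-binding receptor that signals through the adaptor encoded by Fcer1g. It was the least abundant member in K5-RANKL glands, with 0, 1 and 1 counts in controls and 21, 29 and 23 counts in K5-RANKL libraries. The ratio of summed counts per scaled library was 19.2, with a 95% counting interval of 5.13 to 162 (edgeR adjusted p = 2.21e-05). The 0 counts of control 1 allow up to 0.277 CPM, the level of 3 counts there. Fcer1g rose by 1.79 (SE 0.10).

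Itgb3 (Entrez 16416, chromosome 11 from 104608000 to 104670476) encodes integrin beta 3, which pairs with the alpha v chain in the osteoclast sealing zone and with the alpha IIb chain in platelets. It stood at 5.07, 6.28 and 7.82 CPM in controls and 19.3, 24.2 and 24.7 CPM in K5-RANKL libraries, with no overlap. Itgb3 rose by 1.81 (SE 0.15, 3.51-fold, edgeR adjusted p = 2.00e-08). Its partner gene Itgav rose by 2.32 (SE 0.09). The platelet partner Itga2b stood at 2.03, 3.73 and 3.60 CPM in controls and 3.49, 3.10 and 3.87 CPM in K5-RANKL libraries, and was not called.

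Nfatc1 (Entrez 18018, on chromosome 18) encodes the calcium-dependent master regulator of the osteoclast programme and is also expressed in endothelial and epithelial cells. It was at 17.9, 18.9 and 20.03 CPM in controls and at 43.2, 43.4 and 42.9 CPM in K5-RANKL libraries. Both groups were tight and did not overlap. The rise of 1.19 (SE 0.08, 2.28-fold, edgeR adjusted p = 1.18e-09) was exceeded by 14.3% of all genes tested, the highest share among the 9 members called.

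**Figure D2:**
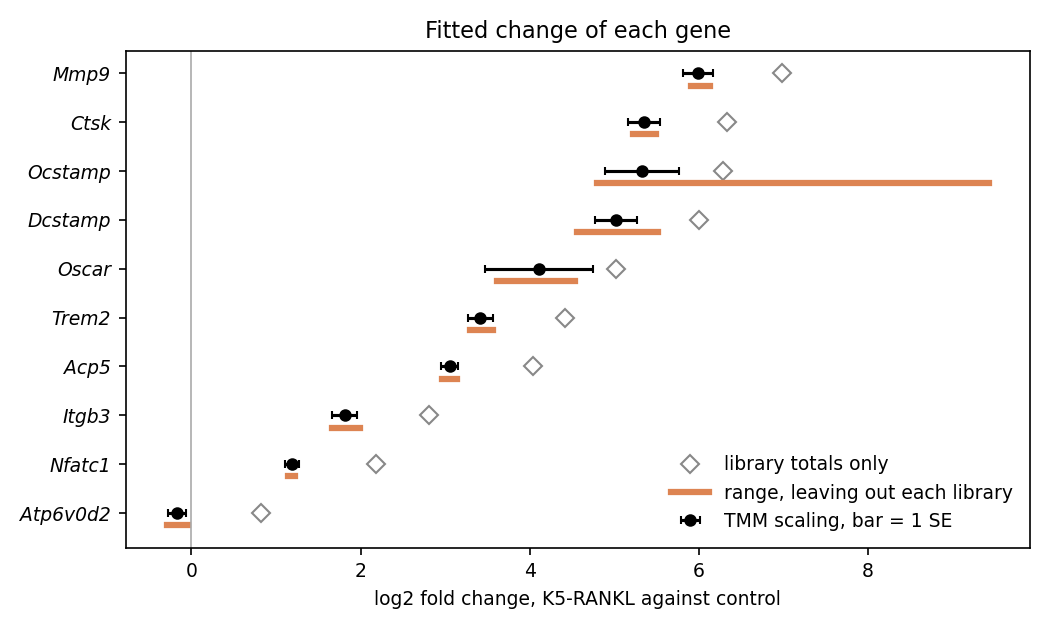
Fitted log2 fold change of each gene with TMM scaling (points, bars of 1 SE), with library totals only (diamonds) and the range when each library is left out (orange). Nfatc1 at 1.19 and Mmp9 at 5.99 bound the 9 genes called; Atp6v0d2 is at −0.17 and crosses to 0.82 by library totals, and the far end of the Ocstamp range is the fit without control 3, where controls hold 0 counts.

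Levels of different genes were compared as CPM per kilobase of merged protein-coding exons in GENCODE M21, with the caveat that the authors' gene models are not given. In controls Acp5 (19.7 ± 0.491) and Atp6v0d2 (19.0 ± 0.754) led, with overlapping ranges. Ctsk (2.96 ± 0.466) and Nfatc1 (2.55 ± 0.145) came next and also overlapped, as did Trem2 (1.60 ± 0.324) and Itgb3 (1.11 ± 0.239). Mmp9 (0.719 ± 0.0528) and Dcstamp (0.323 ± 0.251) followed, then Oscar (0.0318 ± 0.0281) and Ocstamp (0.0285 ± 0.0494), and the ranges of Dcstamp, Oscar and Ocstamp overlapped (SD, n = 3 for each). In K5-RANKL glands the order was Acp5 (163 ± 20.9), Ctsk (120 ± 23.2) and Mmp9 (45.8 ± 8.38), whose ranges were apart from each other. Trem2 (17.2 ± 0.288) and Atp6v0d2 (16.9 ± 2.92) overlapped in CPM per kilobase, and Dcstamp (10.8 ± 0.815), Nfatc1 (5.80 ± 0.0353), Itgb3 (3.92 ± 0.516), Ocstamp (1.38 ± 0.0849) and Oscar (0.631 ± 0.189) were each apart from their neighbours. Mmp9 thus stood at the seventh place in controls and the third in K5-RANKL glands, and Atp6v0d2 at the second and the fifth.

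**Figure D3:**
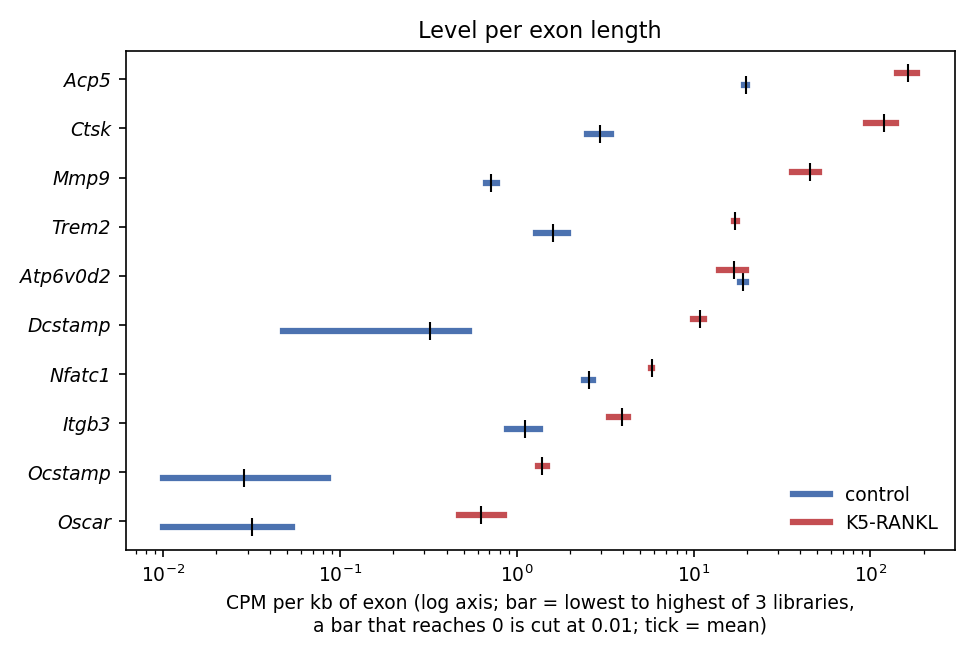
CPM per kilobase of exon (log axis) of the 10 genes, as the range of 3 libraries (bars; a bar that reaches 0 is cut at 0.01) with the mean (tick), in control and K5-RANKL glands. Acp5 and Atp6v0d2 share the top level in controls, at 19.7 and 19.0; in K5-RANKL glands Acp5 stands at 163 and Atp6v0d2 at 16.9.

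Among K5-RANKL libraries the members were lower in K5-RANKL 1 and higher in K5-RANKL 2 on the TMM scale. Set against the mean of the other K5-RANKL libraries, the members' median log2 deviation was −0.32 in K5-RANKL 1, with 9 of 10 members below, and 0.20 in K5-RANKL 2, with all 10 above. K5-RANKL 3 was at 0.04. The same deviation was not computed over all genes tested, so this order may not be particular to the members. The order of Spt1, the leading secretory transcript, was the same, at 13.9%, 18.5% and 15.5% of counts in K5-RANKL 1, 2 and 3. That of Tnfsf11 differed, at 702, 405 and 723 CPM, with K5-RANKL 2 the lowest. The part of library composition or of Tnfsf11 in the order of the members was not tested. The 9 members called higher passed the test in each of the 6 fits that left out 1 library. Those fits called 32.4%, 32.1% and 32% of all genes higher without control 1, 2 and 3, and 31.8%, 33.4% and 31.2% without K5-RANKL 1, 2 and 3. The shares called lower were 30.2%, 30.3% and 29.9% without the controls in turn and 29.9%, 31.3% and 29.1% without the K5-RANKL libraries in turn. The only member called lower in any of them was Atp6v0d2, without K5-RANKL 2.

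Macrophage genes rose beside the members. All 12 genes of a macrophage list were called higher, with a median log2 fold change of 2.20 and summed levels of 402 to 482 CPM in controls and 2569 to 2699 CPM in K5-RANKL libraries. Lyz2, the lysozyme gene and the most abundant of them, rose by 2.78 (SE 0.10). Ratios within a library do not depend on the scaling between libraries, so each member was set against the mean log2 level of these 12 genes. With 3 against 3 libraries the exact permutation test cannot go below 0.1, so no ratio could pass 0.05.

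Relative to the macrophage genes, the ratio was higher in K5-RANKL libraries for 7 members and lower for 3. The log2 ratio of Mmp9 was −2.95, −3.04 and −3.10 in controls and 0.49, 0.93 and 0.96 in K5-RANKL libraries, a difference of 3.82. That of Ctsk was −1.68, −2.18 and −2.39 in controls and 0.81, 1.32 and 1.21 in K5-RANKL libraries, a difference of 3.19. Dcstamp and Ocstamp differed by 3.30 and 3.65 log2, with control values that rest on few counts. The Dcstamp difference was 2.33 without control 2 and 3.96 without control 1, and that of Ocstamp was 4.58 without control 3. As folds, these differences are 14.2 for Mmp9, 9.14 for Ctsk, 9.82 for Dcstamp and 12.5 for Ocstamp. The reference is the mean log2 level of the listed genes, not all macrophage RNA. Against the log2 of the listed genes' summed CPM, the log2 differences were 3.40 for Mmp9, 2.77 for Ctsk, 2.87 for Dcstamp and 3.22 for Ocstamp.

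Trem2 (1.28, or 0.86 against the log2 of the summed macrophage CPM) and Acp5 (0.92, or 0.49) differed less on the same log2 ratio scale. Oscar differed by 1.51, but by 0.28 with 2 counts added in place of 0.5, and Ocstamp then by 2.21. Itgb3 was lower relative to macrophage genes by a small margin (difference −0.29, or −0.72 against the summed macrophage CPM). Its ratio was −1.71, −1.70 and −1.34 in controls and −2.08, −1.81 and −1.74 in K5-RANKL libraries. Nfatc1 was lower by more, at 0.10, −0.13 and 0.02 in controls and −0.92, −0.97 and −0.94 in K5-RANKL libraries (difference −0.94). Atp6v0d2 differed by −2.31. The groups did not overlap for any of these 10 ratios, and each gave an exact two-sided permutation p of 0.1, adjusted over the 10 ratios also 0.1. The share of all genes tested whose groups are apart on this ratio was not computed. The macrophage genes themselves rose by a median of 2.20, so a gene that was not called, such as Atp6v0d2, can also be apart.

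**Figure D4:**
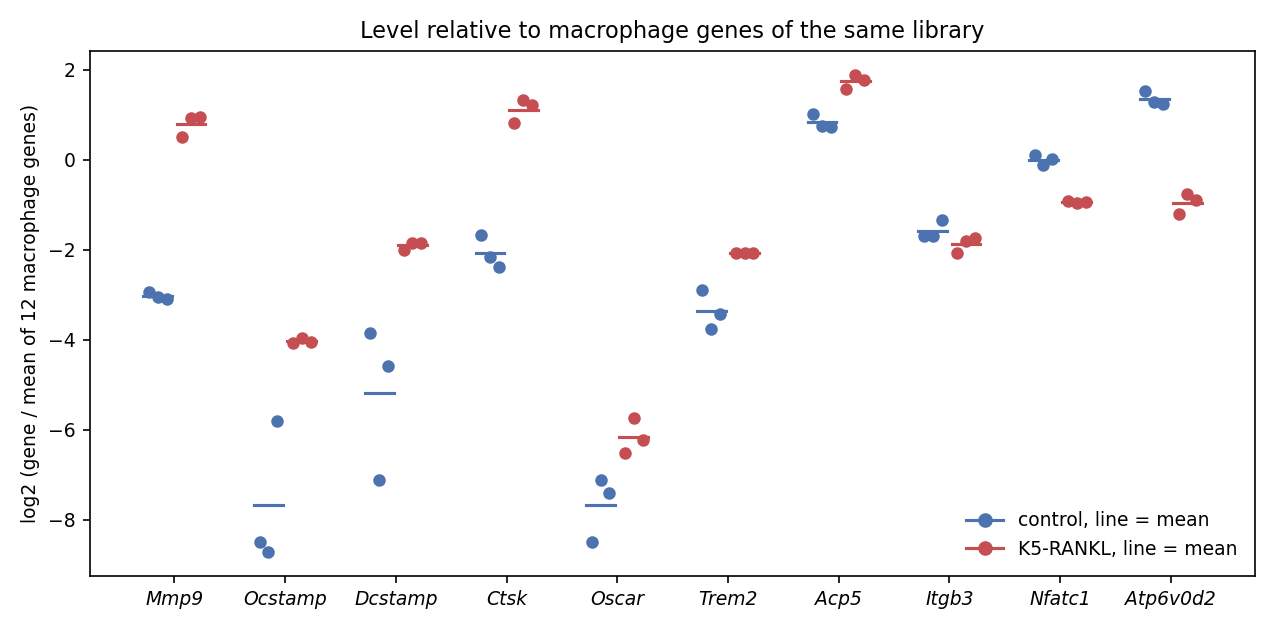
Log2 ratio of each gene to the mean log2 level of 12 macrophage genes in the same library (y axis), 1 point per library with group means as lines, ordered by the difference between groups. Mmp9 shifts by 3.82 at the left end, Itgb3 by −0.29, Nfatc1 by −0.94 and Atp6v0d2 by −2.31 at the right end.

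Other cell types that could contribute these transcripts also differed. Of 8 fibroblast genes 7 rose, with a median of 1.61 and sums of 578 to 781 CPM in controls and 2689 to 3147 CPM in K5-RANKL libraries. Col3a1, a fibrillar collagen gene and the most abundant of them, rose by 3.13 (SE 0.15), and Dcn stood at −0.12. All 7 dendritic cell genes rose, led in abundance by the integrin gene Itgax at 2.55 (SE 0.11). All 6 microfold cell genes rose, with a median of 5.13 and sums of 57.4 to 65.7 CPM in controls and 1484 to 1601 CPM in K5-RANKL libraries. Of 6 endothelial genes 2 rose and 2 fell, with Pecam1 at 0.37 (SE 0.08). By library totals every K5-RANKL library lay above every control for all 6. With that scaling edgeR called 83.5% of all genes tested higher, so this separation may not be particular to endothelial genes. The share of all genes tested whose groups were apart by library totals was not computed. Of 7 platelet genes 2 could be tested, of which Pf4, platelet factor 4, rose by 1.21 (SE 0.22).

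Osteoblast genes did not rise together. Of 7 osteoblast genes 4 could be tested: Alpl rose by 0.68 (SE 0.17), and Bglap, Bglap2 and Runx2 fell by 5.16, 2.50 and 0.73. By library totals the groups of Runx2 overlapped, while Bglap and Bglap2 stayed lower without overlap. Ibsp, a bone matrix gene, had 0 counts in every library, and Sp7, which osteoblasts require, had 0 counts in all but K5-RANKL 3, at 0.0932 CPM. Dmp1, a matrix protein gene of osteocytes, was also too low to test, with 0, 1 and 3 counts in controls and 10, 5 and 6 in K5-RANKL libraries, so its groups did not overlap; the ratio of summed counts per scaled library was 2.76, with a 95% counting interval of 0.932 to 11.1. The part of each of the other cell types in the members' rise was not tested.

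Upstream, genes of the RANK and CSF1 axis mostly rose. The list holds 7 genes, of which 6 rose and 1 fell. Their median log2 fold change was 2.21. The 6 include Tnfsf11, which encodes the RANKL that the transgene expresses, so its rise was set by the design. Counts per gene do not separate transgene from endogenous transcript. Tnfsf11 rose by 8.15 (SE 0.53; 8.80 without control 1), and Tnfrsf11b, which encodes the decoy receptor of RANKL, by 5.78 (SE 0.16). The gene that fell was Lgr4, encoding another receptor of RANKL, at −0.81, and it was not called lower by library totals, where 83.5% of all genes were called higher and 4.97% lower. All 9 ITAM adaptor and kinase genes rose, with a median of 1.62. Next to Tyrobp, the kinase gene Syk rose most, by 2.08 (SE 0.08) from 23.3 ± 0.0890 to 98.6 ± 3.16 CPM (SD, n = 3 each).

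The osteoclast transcription factor genes had a median of 1.73: 6 of 7 rose, and the remaining gene, Mitf, did not pass. Spi1, encoding the myeloid factor PU.1, rose by 2.25 (SE 0.10) and Fosl2, of the AP-1 family, by 2.07 (SE 0.09). Mitf was at 0.19 (SE 0.12). Among repressors of the programme, Irf8, which also marks macrophages, rose by 1.32 (SE 0.08), while Bcl6 and Id2 fell on the TMM scale and rose by library totals. Without control 1 or without K5-RANKL 3 only 1 of Bcl6 and Id2 was called lower. Other NFAT and calcineurin genes went both ways. There were 3 higher, 3 lower and 2 not called among 8, beside 34.2% of all genes tested called higher and 32.1% lower. The median of the 8 was −0.04. By library totals all 8 rose, as did 83.5% of all genes tested. The count called lower was 1 in place of 3 with DESeq2, without the low-count filter, and when control 1, control 2, K5-RANKL 1 or else K5-RANKL 3 was left out. Nfatc4 and Nfatc2 rose by 1.17 (SE 0.17) and 0.87 (SE 0.11).

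The acid secretion genes did not follow the secreted effectors. Of 16 listed, 15 were tested: 7 were called higher, 4 lower and 4 neither, and the median was 0.11. Over all genes tested the same test called 34.2% higher and 32.1% lower. By library totals 14 rose and 0 fell, where 83.5% of all genes tested were called higher and 4.97% lower. Car2, encoding carbonic anhydrase 2, which supplies the protons, fell by 1.16 (SE 0.09) and was not called by library totals (−0.17, edgeR adjusted p = 0.138). Atp6v1b2, a catalytic-sector subunit of the proton pump, rose by 1.10 (SE 0.09). Tcirg1, encoding the a3 subunit that osteoclasts need, rose by 1.00 (SE 0.08) from 23.1 ± 1.03 to 46.3 ± 2.51 CPM (SD, n = 3 each). The chloride channel gene Clcn7 stood at −0.14 (SE 0.08) and was not called. Tcirg1 and Clcn7 were named after their values were seen.

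Other matrix-degrading proteases rose in 6 of 7 cases, with a median of 2.53. Mmp12, macrophage elastase, rose by 6.13 (SE 0.16) from 0.671 ± 0.253 to 46.2 ± 1.81 CPM, and Mmp13, a collagenase, by 4.46 (SE 0.41), from 4 control counts. Ctsl stood at 0.04. Of 10 adhesion and podosome genes 9 rose and Gsn, encoding gelsolin, fell by 0.73 on the TMM scale and rose by library totals. Spp1, encoding osteopontin, a ligand of the alpha v beta 3 integrin, rose by 6.40 (SE 0.12) from 2.17 ± 0.359 to 184 ± 15.1 CPM (SD, n = 3 each). Among 7 other fusion genes the median was 0.47, with 5 called higher, 1 lower and 1 neither. Adam12 rose by 2.23 (SE 0.18) and Cd47 by 1.14 (SE 0.08). Cd9 fell by 0.30 on the TMM scale and rose by library totals.

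Of 4 late osteoclast markers, the 3 that could be tested rose. Ckb, the brain-type creatine kinase gene, stood at 14.75, 13.25 and 14.01 CPM in controls and 41.4, 61.6 and 49.9 CPM in K5-RANKL libraries, and rose by 1.86 (SE 0.14). Slc9b2, a sodium-proton exchanger gene, had 5 counts over the controls and 450 over the K5-RANKL libraries. It rose by 5.51 (SE 0.37, edgeR adjusted p = 7.65e-10), and by 6.23 without control 1. Siglec15 had 1 count in controls and 44 in K5-RANKL libraries, a ratio of 23.2 with a 95% counting interval of 3.95 to 935; its only control count was in control 3. Calcr, the calcitonin receptor gene that marks mature osteoclasts, was too low to test. It had 0 counts in all controls and 17 in the 3 K5-RANKL libraries together, between 0.208 and 0.373 CPM, at least 2.98-fold higher against 3 counts over the control group. Counting intervals and floors cover counting error only. Over the 10 pathway lists, 77 genes were tested, of which 56 were higher and 12 lower, with a median of 0.78. The 56 include Tnfsf11, whose rise was set by the transgene.

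**Figure D5:**
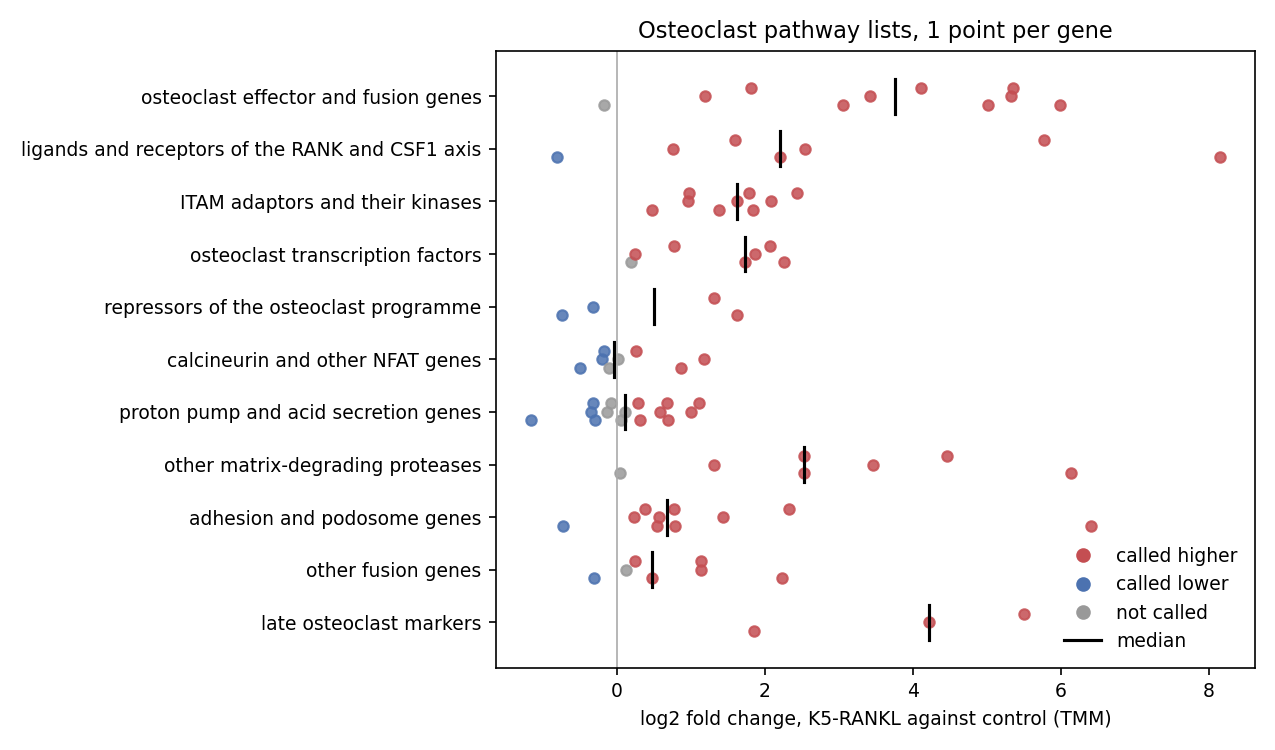
Log2 fold change (TMM) of each tested gene in the 10 genes described and the osteoclast pathway lists, 1 point per gene coloured by its call, with list medians as lines. The 10 genes have a median of 3.76, the proteases 2.53 and the acid secretion genes 0.11.

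The genes whose profile over the 6 libraries lay closest to 3 of the members were found by the distance between centred log2 CPM profiles. For Ctsk they were Ccl9, at a distance of 0.41, Gm8801 at 0.53 and Spib at 0.60, and Ccl9 and Spib are also on the microfold cell list, where Spib was the most abundant gene. For Acp5 they were BC002163 at 0.27, Stx11 at 0.285 and S100a4 at 0.31. For Trem2 they were Ubd at 0.18, Pmaip1 at 0.19 and Cdkn1a at 0.26. These distances include the change between the groups, which was 5.35 for Ctsk, 5.23 for Ccl9, 9.06 for Gm8801 and 5.02 for Spib. A short distance therefore does not show expression in the same cells, which was not tested.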

How the data were processed

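The authors deposited raw read counts per gene as whole numbers. Each library came from 250 ng RNA with a stranded mRNA kit (TruSeq), per the labels' protocols. Reads were aligned with STAR to mm10, per the submitters' processing notes, with the aligner version, counting tool, annotation and strand setting not given in the sources used here. Groups follow the genotype label, and replicate numbers are in accession order and pair nothing. Same-group libraries differed by more than sampling noise, with a mean chi-square of 6.26 to 38.3 per gene. Abundant genes can dominate that mean: Spt1 held 35.1%, 28.8% and 28.5% of counts in control 1, 2 and 3.

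Genes were filtered with filterByExpr at a minimum count of 10, scaled by TMM and tested across all 14044 genes with edgeR 4.0.16 (robust quasi-likelihood, two-sided, Benjamini-Hochberg) in R 4.3.3. DESeq2 1.42.0 and limma 3.58.1 were alternatives. SE is the log2 fold change over the square root of F. Within-library ratios used log2 of counts plus 0.5, and ratios of summed counts have exact conditional Poisson intervals. Exon lengths came from GENCODE M21 and promoters from RefSeq. Alternatives were other scalings, filters and tests, leaving out each library, and for ratios another prior, the summed macrophage level and a fibroblast reference. Adgre1 was matched by its older symbol, and Ly6g was not matched.

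The members and lists were chosen with earlier results of these data known. Named beside the 10 members are the 2 called genes of each pathway list with the largest change, the most abundant gene of each cell type list and the 3 nearest profiles of Acp5, Ctsk and Trem2. Other named genes were picked from their values. A gene that this rule names is not reported here. No set test was run.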

Additional observations from a re-analysis of the deposited data

How the results depend on the processing

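The members were counted again under 14 alternatives: 8 of scaling, filter or test, and 6 leaving out 1 library each. Between 8 and 10 members were called higher in all of them: 10 by library totals, where 83.5% of all genes were, and 8 with at least 50 counts required in 3 libraries, where Oscar was not tested. The count of members called lower was 0 to 1 on leaving out each library, and the 1 is Atp6v0d2 without K5-RANKL 2; its log2 fold change also turned to 0.82 by library totals. Over the pathway lists, 54 to 75 genes were called higher, and the 12 called lower became 0 by library totals and 8 to 12 on leaving out each library. Relative to the fibroblast list in place of the macrophage list, the log2 ratio difference of Itgb3 turned to 0.25. The cause of these changes was not tested. The other ratio differences kept their sign under all 9 alternatives. No paired analysis was possible because the labels give no replicate numbers. Depth limits Oscar and Ocstamp, with 2 and 4 control counts.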
